A study of Rattus norvegicus with 13 samples.

Results

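H3K4me2 sites that differed between Myocd-LSD1 and Myocd-LSD1NF cells were taken from the authors' deposited table of the comparison of these lines, and all of its 5183 sites were used. CUT&Tag, in which an antibody guides the Tn5 transposase to cut the DNA next to a chromatin mark, was run on aortic smooth muscle cell (SMC) lines of the rat. Myocd-LSD1 and Myocd-LSD1NF cells gave 3 libraries each, out of 13 in the series; a peak list of control cells, labelled WT (3 libraries), and a list of FLAG peaks from FLAG-tagged Myocd-LSD1 cells (4 libraries) serve below only to annotate the sites. The labels name each line but do not spell out NF, do not describe how the lines were made and do not say whether libraries of a line came from separate cultures or clones. All cells were grown in the same medium with serum, and neither line has another treatment in the labels.

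LSD1, encoded by Kdm1a, is a demethylase that removes methyl groups from mono- and dimethylated lysine 4 of histone H3. H3K4me2, the dimethylated form, lies at active and poised promoters and enhancers. Myocardin, encoded by Myocd, has no DNA contact of its own and drives contractile genes by binding serum response factor (SRF) at CArG boxes. The SMC identity of both lines was checked on promoter peaks, meaning peaks no more than 3 kb from a TSS (transcription start site). Of 9 SMC markers, 8 had a promoter peak in Myocd-LSD1 cells, with Myh11 lacking one, and 9 had one in Myocd-LSD1NF cells. None of 7 endothelial and none of 7 skeletal and cardiac markers had a promoter peak in either line. Leukocyte markers had 2 of 6 promoter peaks in each line, and neural markers had 3 of 6 in Myocd-LSD1 cells, against 2 of 6 in Myocd-LSD1NF cells. Directions were checked against the peak lists. Of the 3009 sites that were higher in Myocd-LSD1, 3007 overlapped a Myocd-LSD1 peak, and of the 2174 lower sites 2173 overlapped a Myocd-LSD1NF peak. A peak of the other line was at 1406 higher sites (46.7%, Myocd-LSD1NF) and 1115 lower sites (51.3%, Myocd-LSD1).

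The DNA before some start sites that carried a differing site is shown first, because SRF acts through the CArG box in such windows. The 250 bases before the start, 5′ to 3′, come from RefSeq (build GRCr8), whose starts can differ from those of rn6, the build of the sites. Capitals mark a match to the CArG box, searched on both strands, which 1.5% of all 27457 such windows hold. It was in 6 of 518 windows (1.16%, 95% exact binomial interval 0.426 to 2.50, for counting error alone) of genes with a higher site on the TSS and in 3 of 167 (1.80%, 0.372 to 5.16) of those with a lower one, and both intervals hold the share of all windows. The genes shown were chosen with their values known, as targets or partners of SRF or for the size of their differences. Cnn1 (calponin) and Ldb3 (a Z-disc LIM protein) had a lower start-site level in Myocd-LSD1 cells, as did the immediate early gene Egr2 and the imprinted zinc finger gene Peg3. Fhl2, a LIM protein that binds SRF, and Gad2, a glutamate decarboxylase, had a higher one.
Cnn1 (chr8:28908187-28908436, plus strand): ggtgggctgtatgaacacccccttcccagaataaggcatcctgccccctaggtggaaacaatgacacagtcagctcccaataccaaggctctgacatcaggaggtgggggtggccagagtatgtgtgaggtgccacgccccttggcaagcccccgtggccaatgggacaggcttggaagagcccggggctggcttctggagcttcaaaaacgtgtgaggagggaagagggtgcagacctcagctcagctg
Ldb3 (chr16:9924680-9924929, minus strand): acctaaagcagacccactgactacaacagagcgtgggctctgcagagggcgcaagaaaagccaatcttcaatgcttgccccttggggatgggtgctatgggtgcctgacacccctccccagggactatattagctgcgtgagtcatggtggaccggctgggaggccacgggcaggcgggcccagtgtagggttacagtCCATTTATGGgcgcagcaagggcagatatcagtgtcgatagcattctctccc
Egr2 (chr20:21054442-21054691, minus strand): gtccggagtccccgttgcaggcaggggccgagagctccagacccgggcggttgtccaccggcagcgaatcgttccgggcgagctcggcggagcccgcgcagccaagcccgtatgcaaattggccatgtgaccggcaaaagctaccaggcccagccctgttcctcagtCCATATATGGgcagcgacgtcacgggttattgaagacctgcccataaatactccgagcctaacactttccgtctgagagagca
Peg3 (chr1:76130744-76130993, plus strand): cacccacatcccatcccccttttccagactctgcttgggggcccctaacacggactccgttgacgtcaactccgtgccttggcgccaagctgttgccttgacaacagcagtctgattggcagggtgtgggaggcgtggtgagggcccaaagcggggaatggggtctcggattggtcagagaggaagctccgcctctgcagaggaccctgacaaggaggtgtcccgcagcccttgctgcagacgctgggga
Fhl2 (chr9:52954541-52954790, minus strand): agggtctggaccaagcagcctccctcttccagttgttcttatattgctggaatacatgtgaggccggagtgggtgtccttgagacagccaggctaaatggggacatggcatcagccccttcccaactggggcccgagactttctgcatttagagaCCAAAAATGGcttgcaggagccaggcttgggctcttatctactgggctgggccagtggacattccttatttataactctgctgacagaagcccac
Gad2 (chr17:89671468-89671717, plus strand): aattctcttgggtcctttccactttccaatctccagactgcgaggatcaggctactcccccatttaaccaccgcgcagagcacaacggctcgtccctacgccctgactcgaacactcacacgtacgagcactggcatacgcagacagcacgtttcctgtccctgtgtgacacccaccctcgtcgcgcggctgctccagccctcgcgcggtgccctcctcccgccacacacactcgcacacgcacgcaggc
The CArG match lies 52 bases before the start in Ldb3, 83 in Egr2 and 95 in Fhl2. Ldb3 stood at 4.86 in Myocd-LSD1 cells, against 6.76 in Myocd-LSD1NF cells at its start site per the authors' deposited table (difference -1.90, FDR 1.85e-06). Egr2 stood at 6.06 in Myocd-LSD1 cells, against 7.26 in Myocd-LSD1NF cells per the authors' deposited table (difference -1.20, FDR 2.92e-05). Fhl2 stood at 5.58 in Myocd-LSD1 cells, against 3.06 in Myocd-LSD1NF cells per the authors' deposited table (difference 2.52, FDR 2.20e-06). A CArG match was thus present before starts that were lower and before a start that was higher in Myocd-LSD1 cells, and Cnn1, Peg3 and Gad2 held none in this window.

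Levels in the authors' deposited table are mean log2 concentrations per line, and a difference is the Myocd-LSD1 minus the Myocd-LSD1NF level on the log2 scale. The table holds only sites at a false discovery rate (FDR) of at most 0.05, with no value per library and no standard error, so the spread between libraries enters only through the authors' FDR. From the FDR and p-value columns, about 36351 sites had been tested. Of these, 2174 (5.98%) were lower and 3009 (8.28%) higher in Myocd-LSD1, 14.3% in all. Lower sites had a median difference of -2.09 (lowest -7.54, nearest to 0 -0.51) and higher sites one of 2.36 (0.51 to 8.66) per the authors' deposited table. Most differences had a size of at least 1 (1954 lower, 2656 higher), and at 549 lower and 1106 higher sites the size was 3 or more. Higher sites had a median level of 5.49 in Myocd-LSD1 cells, against 2.88 in Myocd-LSD1NF cells, and lower sites one of 3.00 in Myocd-LSD1 cells, against 5.21 in Myocd-LSD1NF cells, per the authors' deposited table. The line with more of the mark never stood below 3.03 at a listed site. At 454 of the higher sites the Myocd-LSD1NF level was at the lowest value of its column (-0.11), and at 233 of the lower sites the Myocd-LSD1 level was at its own (-0.08). These sites have almost no signal in one line. Where such a site is named below, only its levels are given, while counts and medians include these sites unless stated otherwise. In bulk libraries such as these, a lower level in every cell and loss of the mark in part of the cells cannot be told apart.

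**Figure D1:**
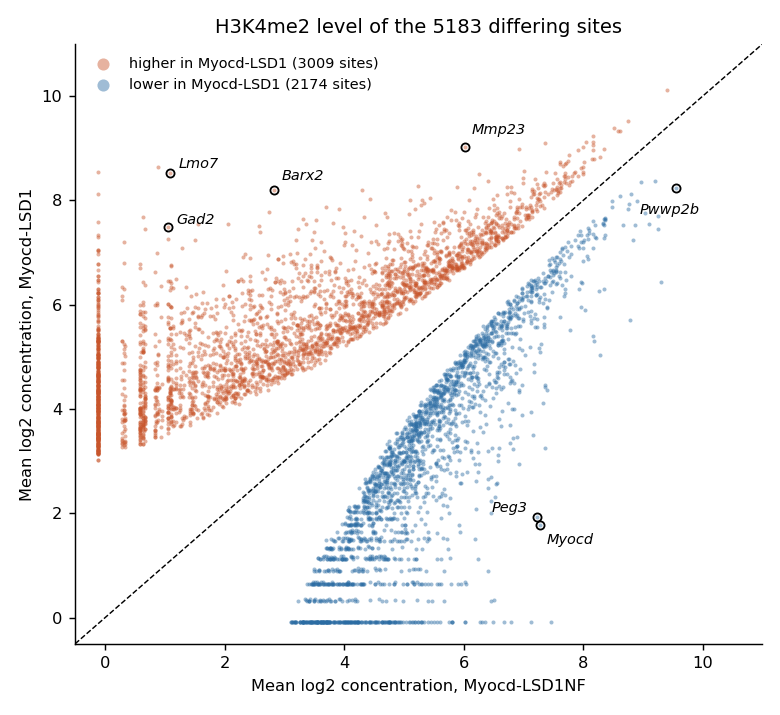
Mean log2 H3K4me2 concentration of each of the 5183 sites in Myocd-LSD1 (vertical axis) against Myocd-LSD1NF cells (horizontal axis), from the authors' deposited table; each point is a site, orange where higher and blue where lower in Myocd-LSD1, and the dashed line marks equal levels. The empty band along the line widens towards low levels, the columns of points at the left and bottom edges are the sites at the lowest value of a column, and Lmo7 (8.52 and 1.08) and Myocd (1.77 and 7.27) lie far from the line.

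Lower and higher sites lay in different parts of genes. Within promoters were 43.9% of the higher sites (exact interval 42.1 to 45.7) and 23.1% of the lower ones (21.3 to 24.9), beside 44.6% of all Myocd-LSD1 and 42.5% of all Myocd-LSD1NF peaks. A peak across the TSS itself was under 713 higher sites (23.7%) and 233 lower sites (10.7%). In introns lay 40.0% of lower (38.0 to 42.1) and 25.2% of higher sites (23.6 to 26.7), beside 25.9% and 27.3% of all Myocd-LSD1 and Myocd-LSD1NF peaks. More than 50 kb from a TSS lay 18.2% of the lower (16.6 to 19.9) and 11.6% of the higher ones (10.5 to 12.8). The promoter share of higher sites was close to that of either peak list, and that of lower sites was smaller. Listed differences were larger away from promoters, where levels were lower. On the TSS the median difference was 1.97 for higher and -1.77 for lower sites, and beyond 200 kb it was 3.43 and -3.07, per the authors' deposited table. The median level in the line with more signal was 6.32 and 6.35 on the TSS, against 4.64 and 4.59 beyond 200 kb. Without sites at a floor, the median differences of higher and lower sites were 1.76 and -1.58 on the TSS. Beyond 200 kb they were then 2.43 and -2.54, per the authors' deposited table. The gradient was not seen at a level of at least 6 in a line, where the medians were 1.30 within and 1.38 beyond 3 kb for higher sites, and -1.14 and -1.13 for lower sites, per the authors' deposited table. A FLAG peak overlapped 977 higher (32.5%) and 494 lower sites (22.7%). The share over all H3K4me2 peaks was not computed. Whether differing sites held a FLAG peak more or less often than other sites was thus not tested. Promoter sites with a FLAG peak had median differences of 1.39 (higher, 379 sites) and -1.06 (lower, 103 sites) per the authors' deposited table. Promoter sites without one had 2.30 (942 sites) and -2.09 (399 sites), and sites outside promoters showed the same order in both directions, with 2.12 and 2.90 for higher and -1.42 and -2.46 for lower sites with and without a FLAG peak. Sites with a FLAG peak had the higher levels: the median level in the line with more signal was 6.12 for higher and 6.06 for lower sites with one, against 5.21 and 5.01 without, per the authors' deposited table. Among sites of at least 6 in a line, the medians with and without a FLAG peak were 1.23 and 1.44 for higher and -1.0 and -1.36 for lower sites per the authors' deposited table.

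**Figure D2:**
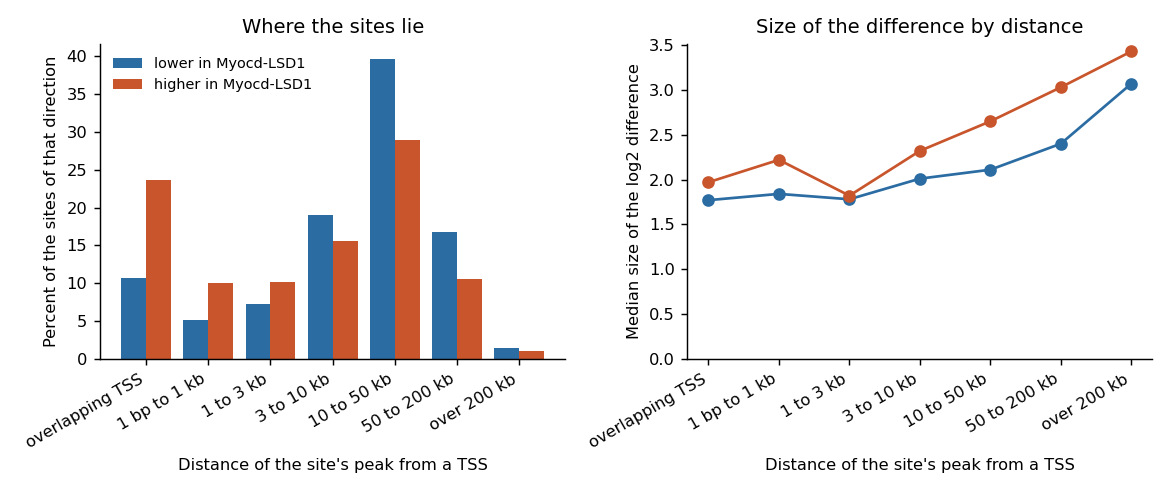
Left, percent of the lower (blue) and higher (orange) sites by the distance of their overlapping peak from a TSS; right, median size of the log2 difference in the same classes, from the authors' deposited table. As a percent of their direction, higher sites are the more frequent ones up to 3 kb from a TSS and lower sites beyond it. By number, 1686 higher and 1671 lower sites lie beyond 3 kb. The median size reaches 3.43 (higher) and 3.07 (lower, difference -3.07) in the last class, which holds only 32 and 30 sites. Among sites of at least 6 in a line the medians within and beyond 3 kb were 1.30 and 1.38 (higher) and -1.14 and -1.13 (lower).

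At single start sites the largest differences of lower sites reached from a strong peak in Myocd-LSD1NF cells to nearly nothing in Myocd-LSD1 cells. Among sites within 1 kb of a TSS with a level of at least 1 in both lines, the site on the TSS of Myocd led the lower ones, with 1.77 in Myocd-LSD1 cells, against 7.27 in Myocd-LSD1NF cells per the authors' deposited table (difference -5.50, FDR 8.54e-25). Peg3, an imprinted gene expressed from the paternal allele, followed with 1.93 and 7.22 (chromosome 1, 70212162 to 70213770, rn6; difference -5.29, FDR 1.11e-24) in the Myocd-LSD1 and Myocd-LSD1NF columns of the authors' deposited table. Sptbn1, a spectrin of the membrane skeleton, had 2.01 in Myocd-LSD1 cells, against 6.45 in Myocd-LSD1NF cells (chromosome 14, 114617552 to 114618600; difference -4.44, FDR 6.00e-16) per the authors' deposited table. Other lower start sites of this rank were at Hrasls, Esm1, Il17b, Srpx, Veph1 and Zfp39, with differences of -4.21 (Hrasls) to -3.65 (Zfp39) per the authors' deposited table. Esm1 encodes a secreted proteoglycan and Il17b a cytokine. Cdkn1c, the imprinted cell cycle inhibitor p57, was outside this ranking because its level in Myocd-LSD1 cells was below 1. At its start it stood at 0.65 in Myocd-LSD1 cells, against 5.62 in Myocd-LSD1NF cells per the authors' deposited table (difference -4.97, FDR 4.55e-09). Prdm6, a repressor gene enriched in SMC, had 3 lower and 2 higher sites. The largest was not a start site and lay in an intron, 7972 bp from a TSS. It had 1.77 in Myocd-LSD1 cells, against 5.92 in Myocd-LSD1NF cells per the authors' deposited table (difference -4.15, FDR 4.15e-11).

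Under the same limits, gains at start sites reached 6.44. Gad2, which makes the transmitter GABA, stood at 7.49 in Myocd-LSD1 cells, against 1.05 in Myocd-LSD1NF cells on its TSS (chromosome 17, 89170929 to 89173013) per the authors' deposited table (difference 6.44, FDR 6.88e-24). Sncaip, the gene of the synuclein partner synphilin, had 7.09 in Myocd-LSD1 cells, against 1.29 in Myocd-LSD1NF cells per the authors' deposited table (difference 5.80, FDR 5.79e-21). Nrtn, a ligand of the GDNF family, had 7.25 in Myocd-LSD1 cells, against 1.50 in Myocd-LSD1NF cells per the authors' deposited table (difference 5.75, FDR 6.15e-23). The channel gene Asic2 differed by 5.63 per the authors' deposited table. Barx2, a homeobox factor, combined a large difference with a high level and was at 8.20 in Myocd-LSD1 cells, against 2.83 in Myocd-LSD1NF cells (chromosome 8, 33017349 to 33018509) per the authors' deposited table (difference 5.37, FDR 7.99e-44). Hoxb5os of the HOXB cluster (5.99), the basement membrane gene Frem1 (5.66), the transport adaptor Trak1 (5.40) and the tubulin ligase gene Ttll11 (5.32) were further start sites of this rank per the authors' deposited table. None of these genes was at a column floor at the site named. A control peak overlapped the named sites of Gad2, Sncaip, Nrtn, Asic2, Barx2, Frem1, Trak1 and Ttll11, and not that of Hoxb5os.

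Among sites assigned to a named gene (symbols that begin with LOC left out), the 10 lower and 10 higher ones with the most signal had differences below 2 in size, except at Mmp23 and Myo7a. Pwwp2b had the highest Myocd-LSD1NF level of the lower ones, with 8.24 in Myocd-LSD1 cells, against 9.55 in Myocd-LSD1NF cells per the authors' deposited table (difference -1.31, FDR 1.12e-07). Inpp5a, an inositol phosphatase, had 7.71 in Myocd-LSD1 cells, against 9.25 in Myocd-LSD1NF cells per the authors' deposited table (difference -1.54, FDR 4.91e-15). Among higher sites, the caveolin gene Cav1 had 9.33 in Myocd-LSD1 cells, against 8.59 in Myocd-LSD1NF cells per the authors' deposited table (difference 0.74, FDR 0.0289). Mmp23, a membrane metalloprotease, was set apart in this group by 9.02 in Myocd-LSD1 against 6.03 in Myocd-LSD1NF cells per the authors' deposited table (difference 2.99, FDR 7.24e-36). A large difference at a high level did not always go with a low FDR. Myo7a, an unconventional myosin, stood at 6.43 in Myocd-LSD1 cells, against 9.30 in Myocd-LSD1NF cells with an FDR of 0.0325 (difference -2.87) per the authors' deposited table. Of 419 sites off the floors with a level of at least 6 in one line and a difference of at least 2, 31 (7.40%) had an FDR above 0.01 per the authors' deposited table. Nearest to the threshold, Hnrnph1 (difference 0.83) and Sh3yl1 (-1.98) were listed at an FDR of 0.05, and Adamts2 (-0.66), Uqcc2 (-1.30) and Slc9a8 (0.84) at 0.0499, per the authors' deposited table; sites beyond it were not analysed here.

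Sites of 1 direction lay together. Of 184 neighbouring pairs at most 2 kb apart, 173 (94.0%, interval 89.6 to 97.0) had the same direction. The share was 84.1% at 2 to 10 kb (295 pairs), 72.8% at 10 to 50 kb (843 pairs) and 57.8% at 50 to 200 kb (1367 pairs), and at 200 to 1000 kb it was 53.1% (1772 pairs). Sites close to each other can belong to a single marked domain and are not independent. With gaps of up to 50 kb, 32.2% of lower and 35.0% of higher sites stood in a run of at least 2 sites of their direction, and 32 lower and 35 higher runs held 4 or more. Of the 140 sites in such lower runs, 87.9% (81.3 to 92.8) overlapped a control peak, beside 83.8% (82.1 to 85.3) of all lower sites. Of the 180 sites in such higher runs 51.7% (44.1 to 59.2) did, beside 69.2% (67.5 to 70.8) of all higher sites. Among sites at a column floor, the share was 35.0% (30.6 to 39.6) for higher and 57.5% (50.9 to 63.9) for lower sites. The shares in runs are not matched for such sites.

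**Figure D3:**
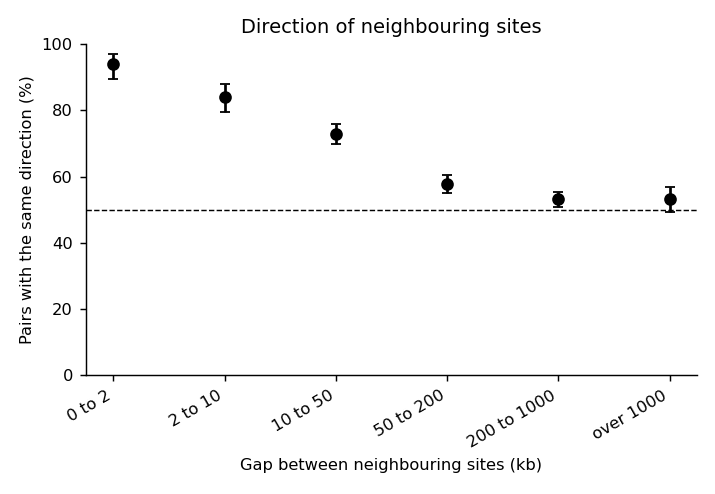
Percent of neighbouring site pairs with the same direction (vertical axis) by the gap between them in kb (horizontal axis); bars are exact binomial intervals (95%, for counting error alone), and the dashed line is at 50%. The share is 94.0% up to 2 kb and 53.1% at 200 to 1000 kb.

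The longest run was at Lmo7, a LIM-domain gene of cell junctions and muscle, where 12 higher sites spanned 163 kb of chromosome 15 (86263531 to 86426813). Its largest site off the floor had 8.52 in Myocd-LSD1 cells, against 1.08 in Myocd-LSD1NF cells per the authors' deposited table (difference 7.44, FDR 8.48e-33). Near a further start of Lmo7 the mark was at 8.13 in Myocd-LSD1 cells and at the floor in Myocd-LSD1NF cells, while a TSS site farther along was at 6.88 in Myocd-LSD1 cells, against 5.60 in Myocd-LSD1NF cells, per the authors' deposited table. Differences at Lmo7 thus varied along the gene. Arhgap32, a GTPase-activating protein gene, held 8 of the 9 sites of the next run, 6 of them at the Myocd-LSD1NF floor against 5.52 to 6.79 in Myocd-LSD1 cells, per the authors' deposited table. Efna5, an ephrin, and a neighbouring locus held 8 higher sites, of which 7 were at the Myocd-LSD1NF floor and 2 overlapped a control peak. At Tgfb2, a TGF-beta ligand, 6 higher sites over 25.2 kb (chromosome 13, 105109998 to 105135245) stood at 6.26 to 7.65 in Myocd-LSD1 cells, against 0.31 to 5.59 in Myocd-LSD1NF cells per the authors' deposited table. The Tgfb2 sites differed by 1.68 to 6.49, and the strongest by FDR had 7.65 in Myocd-LSD1 cells, against 3.31 in Myocd-LSD1NF cells (FDR 4.19e-35), per the authors' deposited table. Frem1 had 6 higher sites, none with a Myocd-LSD1NF peak, and Nhsl1 had 7. Lower runs were shorter. Tns1, a tensin that links actin to integrins, held the longest, with 7 sites from 4.02 to 6.42 in Myocd-LSD1 cells, against 5.99 to 7.19 in Myocd-LSD1NF cells per the authors' deposited table. Adarb1, an RNA-editing enzyme gene, Fez2, Psd3, Rbpms and Tp53i11 had 5 lower sites each. At Rbpms, an RNA-binding protein of SMC, the clearest had 4.59 in Myocd-LSD1 cells, against 6.58 in Myocd-LSD1NF cells (-1.99, FDR 1.71e-08) per the authors' deposited table. Lrrc27 and Pwwp2b shared a run of 6 lower sites over 94.5 kb, all of which overlapped a peak in both lines and in control cells. Beside Mir143, an SMC microRNA gene, 5 lower sites ran through Il17b to Pcyox1l over 45.6 kb of chromosome 18. The site assigned to Mir143 had 6.32 in Myocd-LSD1 cells, against 6.97 in Myocd-LSD1NF cells per the authors' deposited table (difference -0.65, FDR 0.0441), and the sites at the Il17b start differed more, with 0.33 and 1.12 in Myocd-LSD1 against 6.51 and 5.20 in Myocd-LSD1NF cells.

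**Figure D4:**
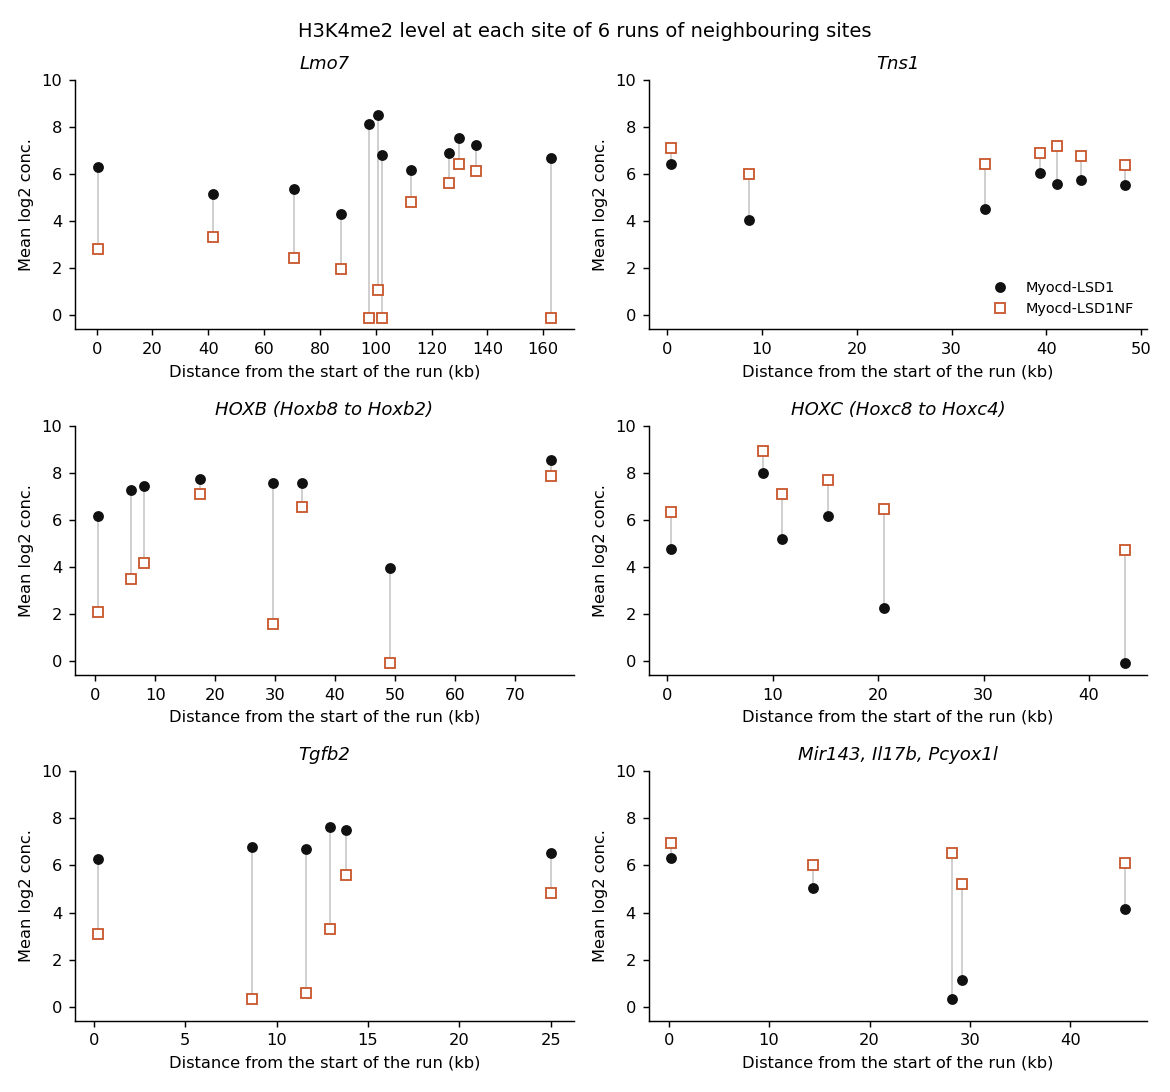
Mean log2 H3K4me2 concentration (vertical axis) of each site of 6 runs by its distance in kb from the start of the run (horizontal axis), from the authors' deposited table; black circles are Myocd-LSD1, open orange squares Myocd-LSD1NF, and a grey line joins the levels of a site. Lmo7, HOXB and Tgfb2 are higher throughout in Myocd-LSD1, and Tns1 (its 7 lower sites only), HOXC and the Mir143 region are lower throughout.

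The HOX clusters, whose genes set position along the body axis and which aortic cells keep as a record of their origin, were split by cluster. HOXB genes had higher sites only (5 of 10 genes with a peak) and HOXC genes lower sites only (4 of 7), while HOXD had 2 genes of each kind among 8 and none of the 7 HOXA genes with a peak had a site. These counts stand beside 9.28% with a lower and 12.8% with a higher site among all 19345 genes with a peak in either line. In HOXB, 8 sites over 76.7 kb of chromosome 10 (84125880 to 84202622) were higher, and 5 of them overlapped a control peak. Hoxb7 stood at 7.42 in Myocd-LSD1 cells, against 4.16 in Myocd-LSD1NF cells (difference 3.26, FDR 1.74e-24) and Hoxb8 at 7.24 and 3.47 near its TSS (3.77, FDR 1.10e-25) per the authors' deposited table. The antisense gene Hoxb5os had the widest gap, with 7.54 in Myocd-LSD1 cells, against 1.55 in Myocd-LSD1NF cells (5.99, FDR 7.02e-28), per the authors' deposited table. Hoxb2, the last of these 8 sites, differed by 0.68 at 8.53 in Myocd-LSD1 cells, against 7.85 in Myocd-LSD1NF cells, per the authors' deposited table. In HOXC, 6 sites over 43.7 kb of chromosome 7 (144604629 to 144648285) were lower, and all 6 overlapped a control peak. Hoxc6, the most strongly marked, had 7.98 in Myocd-LSD1 cells, against 8.90 in Myocd-LSD1NF cells (-0.92, FDR 5.93e-04) per the authors' deposited table. Hoxc5 had 2.24 in Myocd-LSD1 cells, against 6.45 in Myocd-LSD1NF cells (-4.21, FDR 3.10e-15), and Hoxc4 was at the floor in Myocd-LSD1 cells against 4.73 in Myocd-LSD1NF cells, per the authors' deposited table. Along HOXD the direction turned within the cluster. Hoxd13 (6.47 in Myocd-LSD1, 5.33 in Myocd-LSD1NF) and Hoxd10 (7.96 and 5.33, FDR 3.83e-26) were higher, and Hoxd4 (6.47 and 7.71) and a site beside Hoxd1 (0.68 and 6.02) were lower, per the authors' deposited table.

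By gene, 1795 of the 19345 genes with a peak (9.28%) had a lower and 2483 (12.8%) a higher site, and 230 had both. Within 3 kb of a TSS, 476 genes (2.46%) had a lower and 1226 (6.34%) a higher site, and 14 had both. Genes with many peaks had more sites. Of genes with a single peak 3.21% had a lower and 7.04% a higher site, of those with 5 to 9 peaks 25.5% and 25.8%, and of those with 10 or more 41.4% and 43.3%. Genes with 2 peaks had a lower site in 6.78% and a higher one in 11.2%, and genes with 3 to 4 peaks in 12.3% and 16.3%. The median was 2 peaks over all genes, and the median of each of 26 lists of pathways, families and cell types is given beside its counts. The median difference over all 5183 sites was 1.06.

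**Figure D5:**
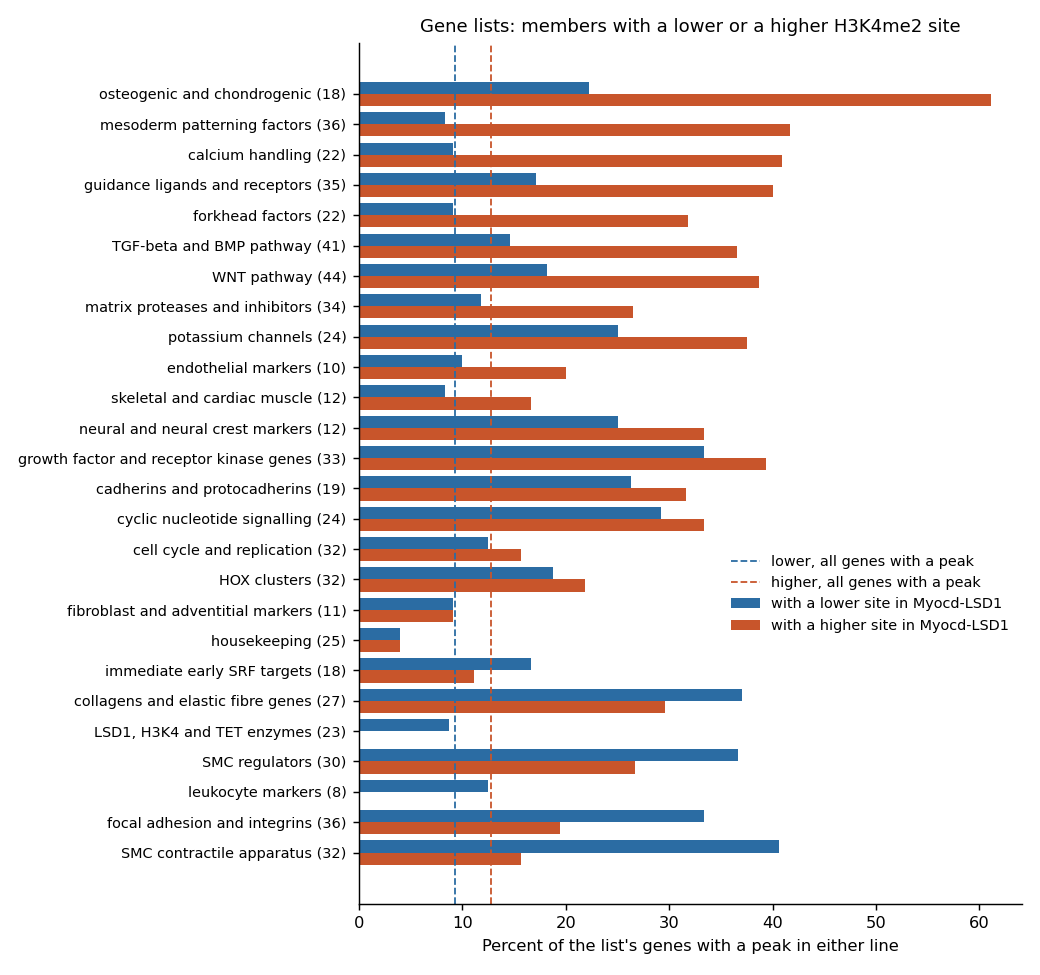
Percent of the genes of each of 26 lists (number with a peak in parentheses) that had a lower (blue) or a higher (orange) site in Myocd-LSD1; dashed lines are the shares over all 19345 genes with a peak, 9.28% lower and 12.8% higher. The lists are ordered by the higher minus the lower share, from osteogenic and chondrogenic genes (11 higher and 4 lower of 18) at the top to SMC contractile genes (5 and 13 of 32) at the bottom.

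Of the 26 lists, contractile genes had the largest share of members with a lower site, 13 of 32 (40.6%), beside 5 (15.6%) with a higher one. Their median was 4 peaks per gene, and their 26 lower and 7 higher sites had a median difference of -1.38 per the authors' deposited table. Cnn1 stood at 2.94 in Myocd-LSD1 cells, against 6.19 in Myocd-LSD1NF cells on its TSS (-3.25, FDR 0.0167) per the authors' deposited table. Other members were lower by less from a high level, such as Ppp1r14a, an inhibitor of myosin phosphatase, with 6.83 in Myocd-LSD1 cells, against 8.0 in Myocd-LSD1NF cells (-1.17, FDR 2.60e-06) per the authors' deposited table. Itga8, an SMC integrin, had 6.08 in Myocd-LSD1 cells, against 7.13 in Myocd-LSD1NF cells (-1.05, FDR 0.00127) per the authors' deposited table. Acta2, smooth muscle actin, was lower at its TSS, with 6.06 in Myocd-LSD1 cells, against 7.13 in Myocd-LSD1NF cells, and higher 421 bp inside the gene, with 6.75 in Myocd-LSD1 cells, against 5.98 in Myocd-LSD1NF cells, per the authors' deposited table. SMC regulators had a lower site in 11 and a higher site in 8 of 30 members, at a median of 6 peaks per gene, but in 7 each at an FDR of at most 0.01 and in 3 each within 3 kb of a TSS. Fhl2 had both kinds, lower (-1.12) about 7 kb before its TSS and higher (2.52) on it, per the authors' deposited table. Of 18 immediate early targets of SRF, 3 had a lower site (Egr2, Egr3 and Ier2) and 2 a higher one (Fosl1 and Cyr61), with differences of -2.38 (Egr3) to 1.33 (Cyr61) per the authors' deposited table. That list had 4 peaks per gene at the median, and its shares were 16.7% lower and 11.1% higher.

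Signalling by cyclic nucleotides relaxes SMC, and its genes went both ways: 7 of 24 had a lower and 8 a higher site, at a median of 3.5 peaks. On the lower side was Gucy1b3, a subunit of the nitric oxide receptor guanylyl cyclase, with 4.11 in Myocd-LSD1 cells, against 7.32 in Myocd-LSD1NF cells on its TSS per the authors' deposited table (-3.21, FDR 1.17e-19). Another subunit gene, Gucy1a2, was on the higher side, with 5.93 in Myocd-LSD1 cells, against 2.62 in Myocd-LSD1NF cells on its TSS per the authors' deposited table (3.31, FDR 0.00379). Mrvi1, a target of the cGMP kinase on internal calcium stores, formed a run of 4 lower sites, and its TSS site had 5.04 in Myocd-LSD1 cells, against 8.29 in Myocd-LSD1NF cells (-3.25, FDR 0.0398) per the authors' deposited table. Among adenylyl cyclases Adcy5, Adcy3 and Adcy6 had lower sites (-2.56 to -1.16), and Adcy8, Adcy2 and Adcy7 higher ones, per the authors' deposited table. Among phosphodiesterases, which break down cyclic nucleotides, Pde1c had 6.19 in Myocd-LSD1 cells, against 2.58 in Myocd-LSD1NF cells on its TSS (3.61, FDR 5.48e-12) and Pde7b 7.42 and 5.25 (2.17, FDR 6.50e-16), per the authors' deposited table. Pde3a had a lower site (-1.63), Pde4d and Pde10a had sites of both kinds, and Pde4a held 4 of the 5 lower sites of a run that starts beside Cdc37, with -3.72 as its largest difference, per the authors' deposited table.

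Calcium handling genes had more higher than lower sites, with a higher site in 9 and a lower site in 2 of 22 members (40.9% and 9.09%, at a median of 4 peaks). The lower ones were Cacna1c, the pore of the L-type calcium channel, with 3.26 in Myocd-LSD1 cells, against 6.59 in Myocd-LSD1NF cells before its TSS (-3.33, FDR 0.00183), and the calcium pump gene Atp2a2, with a distal site at -2.30, per the authors' deposited table. On the higher side was the entry channel Trpc6, with 6.83 in Myocd-LSD1 cells, against 3.14 in Myocd-LSD1NF cells on its TSS (3.69, FDR 3.22e-04), per the authors' deposited table. Pln, the phospholamban that restrains the pump, had 5.92 in Myocd-LSD1 cells, against 1.68 in Myocd-LSD1NF cells on its TSS (4.24, FDR 8.85e-10) per the authors' deposited table. The T-type channel gene Cacna1g, the store channel Itpr3, the store sensor Stim2 and the plasma membrane pumps Atp2b1 and Atp2b4 had higher sites outside or beside the TSS, from 1.21 to 3.69, per the authors' deposited table. Potassium channel genes had a lower site in 6 and a higher site in 9 of 24 members (median 2.5 peaks). Kcnd3 (4 sites) and its partner Kcnip1 (4 sites) were lower throughout, and the vascular channel gene Kcnj8 had 2.51 in Myocd-LSD1 cells, against 5.06 in Myocd-LSD1NF cells (-2.55, FDR 1.73e-04), per the authors' deposited table. Kcnk2, a stretch-sensitive channel, was higher at 3 sites, with 6.47 in Myocd-LSD1 cells, against 3.78 in Myocd-LSD1NF cells on a TSS (2.69, FDR 7.29e-12) per the authors' deposited table. Kcnma1, the large-conductance channel of SMC, was at 4.87 in Myocd-LSD1 cells and at the floor in Myocd-LSD1NF cells on a TSS per the authors' deposited table. Kcnh2 was split, with 5.31 in Myocd-LSD1 cells, against 8.18 in Myocd-LSD1NF cells on a TSS (-2.87, FDR 2.70e-21) and a higher site (1.95) within 3 kb of one, per the authors' deposited table.

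TGF-beta and BMP signals steer SMC growth and matrix, and 15 of 41 genes of their pathway had a higher and 6 a lower site, at a median of 5 peaks per gene. At an FDR of at most 0.01 they were 9 and 5. Its ligands Tgfb2, Tgfb3, Gdf5, Bmp6 and Bmp7 had higher sites only, with Bmp7 at 5.14 in Myocd-LSD1 cells, against 2.17 in Myocd-LSD1NF cells on its TSS (2.97, FDR 1.85e-05) per the authors' deposited table. The receptor genes Tgfbr2, Tgfbr3 and Acvr1b also had higher sites only, while Bmpr1b had 4 higher and 2 lower and Bmpr1a a lower one only (-2.80, more than 3 kb from a TSS) per the authors' deposited table. The transducers Smad3 and Smad7 and the latent binding protein gene Ltbp1 had lower sites only, from -0.88 to -3.52, all of them more than 3 kb from a TSS, per the authors' deposited table. Within 3 kb of a TSS, 7 members had a higher and none a lower site, beside 6.34% and 2.46% of all genes with a peak.

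In the WNT pathway 17 of 44 members had a higher and 8 a lower site (median 3 peaks). Of the ligand genes Wnt2b, Wnt5a, Wnt7a, Wnt10b and Wnt11 had higher sites only, Wnt1 and Wnt10a lower sites only, and Wnt2 both. Wnt5a had 6.85 in Myocd-LSD1 cells, against 4.82 in Myocd-LSD1NF cells on its TSS (2.03, FDR 2.91e-08) per the authors' deposited table. The neighbouring genes Wnt1 and Wnt10b differed in direction. The Wnt1 TSS site (chromosome 7, 140464311 to 140465412) had 5.03 in Myocd-LSD1 cells, against 6.0 in Myocd-LSD1NF cells (-0.97, FDR 0.0250), and the Wnt10b site (140467489 to 140468212) had 4.95 and 2.18 (2.77, FDR 1.81e-04), per the authors' deposited table. Among the R-spondins, which raise WNT receptor levels, Rspo2 had 5.67 in Myocd-LSD1 cells, against 1.05 in Myocd-LSD1NF cells on its TSS (4.62, FDR 2.21e-09) and Rspo3 was higher by 3.27 and 3.57, while Rspo1 was lower with 6.88 in Myocd-LSD1 cells, against 8.08 in Myocd-LSD1NF cells (-1.20, FDR 3.00e-07), per the authors' deposited table. The WNT inhibitors Sfrp2 (3.10) and Sostdc1 had higher sites, and Wif1 and the target and inhibitor gene Axin2 (-3.11) lower ones, per the authors' deposited table.

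Growth factor genes went both ways, 13 of 33 with a higher and 11 with a lower site, at a median of 5 peaks. Pdgfa, Pdgfb, Fgf1, Fgf2 and Fgf18 had lower sites only, with Fgf1 at 3.41 in Myocd-LSD1 cells, against 5.60 in Myocd-LSD1NF cells on its TSS (-2.19, FDR 3.86e-05) per the authors' deposited table. Fgf5, Fgf7, Fgf9 and Fgf10 had higher sites only, with Fgf10 at 5.14 in Myocd-LSD1 cells, against 1.80 in Myocd-LSD1NF cells on its TSS (3.34, FDR 3.63e-05) per the authors' deposited table. The receptor gene Egfr had 7.26 in Myocd-LSD1 cells, against 4.97 in Myocd-LSD1NF cells on its TSS (2.29, FDR 1.22e-14) per the authors' deposited table. Egfr also had a lower site (-2.86) within 4 kb of its TSS per the authors' deposited table. Ntrk2, a neurotrophin receptor, stood at the floor in Myocd-LSD1 against 6.79 in Myocd-LSD1NF cells on its TSS per the authors' deposited table, and the related gene Ntrk3 was higher by 2.41 before its own.

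Factors of mesoderm patterning had a higher site in 15 and a lower site in 3 of 36 members (41.7% and 8.33%, median 3 peaks), and at an FDR of at most 0.01 in 8 and 3. Dmrt2, a factor of somite patterning, had 6.62 in Myocd-LSD1 cells, against 2.62 in Myocd-LSD1NF cells on its TSS (4.00, FDR 1.66e-15) per the authors' deposited table. Tbx18, Prrx2, Osr2, Eya1 and Eya4 had smaller higher sites, from 0.72 to 2.06, and Tbx3 and Twist1 stood at the Myocd-LSD1NF floor, per the authors' deposited table. Irx5 was the only member with lower sites alone (-0.94) per the authors' deposited table, and Osr1 and Mecom had both kinds. Of 22 forkhead genes 7 had a higher and 2 a lower site (median 3 peaks). Foxo3 had 7.56 in Myocd-LSD1 cells, against 5.92 in Myocd-LSD1NF cells on its TSS (1.64, FDR 1.83e-08) per the authors' deposited table, and Foxa2, a factor of endoderm, had 7.60 and 6.07 (1.53, FDR 2.35e-09). Foxp1 had 8 higher and 3 lower sites, the largest being 6.17 in Myocd-LSD1 cells, against 1.44 in Myocd-LSD1NF cells (4.73, FDR 5.54e-13) per the authors' deposited table. Among osteogenic and chondrogenic genes there was a higher site in 11 and a lower site in 4 of 18 members, at a median of 3 peaks and a median difference of 3.02 over their sites per the authors' deposited table. Beside the Sox genes, Col2a1, the cartilage collagen, had 5.75 in Myocd-LSD1 cells, against 3.12 in Myocd-LSD1NF cells (2.63, FDR 8.97e-07), and Mgp, an inhibitor of calcification, had 3.76 and 5.45 on its TSS (-1.69, FDR 0.0179), per the authors' deposited table.

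Focal adhesion and integrin genes had a lower site in 12 and a higher site in 7 of 36 members, at a median of 4 peaks. Lower sites only were at the integrin genes Itga3, Itga4, Itga9, Itgav and Itgb6 and at Pxn, Parva and Pdlim4. Pxn, the adaptor paxillin, had 6.31 in Myocd-LSD1 cells, against 7.69 in Myocd-LSD1NF cells (-1.38, FDR 2.12e-06) per the authors' deposited table. Higher sites only were at Lmo7, the talin gene Tln2 and Lims1, where Tln2 had 5.17 in Myocd-LSD1 cells, against 1.58 in Myocd-LSD1NF cells on its TSS (3.59, FDR 1.71e-05), per the authors' deposited table. Within 3 kb of a TSS the order turned, with 3 members lower and 5 higher. Over all genes with a peak, 2.46% had a lower and 6.34% a higher site within that distance. The order of collagen and elastic fibre genes turned as well: 10 of 27 (37.0%) had a lower and 8 (29.6%) a higher site at a median of 6 peaks, beside 25.5% and 25.8% of genes with 5 to 9 peaks, and 3 and 5 had one within 3 kb of a TSS. At an FDR of at most 0.01 these were 7 lower and 3 higher. Col6a1 had 8.98 in Myocd-LSD1 cells, against 6.92 in Myocd-LSD1NF cells on its TSS (2.06, FDR 5.12e-17), and Fbln1 6.68 and 2.71 (3.97, FDR 6.29e-17), per the authors' deposited table. Col15a1, a basement membrane collagen, had 3.39 in Myocd-LSD1 cells, against 5.28 in Myocd-LSD1NF cells on its TSS (-1.89, FDR 0.00801) per the authors' deposited table.

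Matrix proteases and their inhibitors had a higher site in 9 and a lower site in 4 of 34 members (median 3.5 peaks). Mmp16 had 6.54 in Myocd-LSD1 cells, against 4.25 in Myocd-LSD1NF cells on its TSS (2.29, FDR 1.20e-08), and Adam33 had 5.86 and 0.67 (5.19, FDR 5.70e-04), per the authors' deposited table. Adamts20, Adamts2 and Adamts15 had lower sites only. Guidance genes, whose ligands and receptors steer cells and axons, had a higher site in 14 and a lower site in 6 of 35 members (median 3 peaks). Robo1 had 4 higher sites, 3 of them at the Myocd-LSD1NF floor, and Ephb2 had 3 lower ones (-3.37 to -1.68) per the authors' deposited table. Epha7 had 5.55 in Myocd-LSD1 cells, against 1.14 in Myocd-LSD1NF cells (4.41, FDR 1.08e-08), and Plxnd1, a semaphorin receptor of vessels, had 6.44 and 7.96 (-1.52, FDR 1.45e-06), per the authors' deposited table. Of 19 cadherin genes with a peak (median 3) 5 had a lower and 6 a higher site, and at an FDR of at most 0.01 there were 4 each. Pcdh7 was lower at 4 sites, and the most strongly marked had 5.41 in Myocd-LSD1 cells, against 8.17 in Myocd-LSD1NF cells (-2.76, FDR 1.45e-18) per the authors' deposited table. The atypical cadherin gene Fat4 had 9.13 in Myocd-LSD1 cells, against 8.17 in Myocd-LSD1NF cells on its TSS (0.96, FDR 3.15e-06) per the authors' deposited table.

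Genes of the LSD1 complex, of other H3K4 enzymes and of TET enzymes had a median of 2 peaks. Of 23 members 2 (8.70%) had a lower site, near the 6.78% of genes with 2 peaks. None had a higher site, beside 11.2% of genes with 2 peaks. Kdm1a itself had no site. The lower ones were Phf21a, a reader in the LSD1 complex, with an intron site at 2.94 in Myocd-LSD1 cells, against 5.72 in Myocd-LSD1NF cells (-2.78, FDR 2.69e-06), and Tet3, with 7.56 and 8.33 (-0.77, FDR 0.00708), per the authors' deposited table. Of 32 cell cycle genes (median 2 peaks) 4 had a lower and 5 a higher site, and of 25 housekeeping genes (median 3) 1 each, Actb and Rpl5. Markers of other cell types stood as follows. Endothelial markers had 1 lower and 2 higher members of 10 with a peak, leukocyte markers 1 and 0 of 8, fibroblast markers 1 and 1 of 11, neural markers 3 and 4 of 12, and skeletal and cardiac markers 1 and 2 of 12. Their medians were 1 peak for endothelial, 1.5 for leukocyte, 3 for fibroblast, 2.5 for neural and 2 for muscle markers. Among the neural ones Syt1, a synaptic vesicle protein, had 6.98 in Myocd-LSD1 cells, against 2.35 in Myocd-LSD1NF cells on its TSS (4.63, FDR 7.85e-19) and Tubb3, a neuronal tubulin, had 3.35 and 6.23 (-2.88, FDR 1.81e-08), per the authors' deposited table. Their part in the results above was not tested.

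Of the 1795 genes with a lower site, 230 (12.8%) also had a higher one, beside 12.8% over all genes with a peak. These shares are not matched for the number of peaks. Of the 1795 genes, 552 had 5 to 9 peaks, a class in which 25.8% of genes had a higher site. Of genes with a single peak 7.04% had one. Whether both kinds met more or less often than peak numbers alone would give was not tested. A few genes with both kinds show how the positions differed. At Tns1 the 7 lower sites lay 66294 to 114068 bp from the TSS of their peak and 3 higher sites lay nearer, the strongest with 8.26 in Myocd-LSD1 cells, against 6.80 in Myocd-LSD1NF cells (1.46, FDR 0.0186), per the authors' deposited table. Tns3, a related tensin, was higher on 3 sites within 3 kb of a TSS, the strongest by FDR with 6.45 in Myocd-LSD1 cells, against 3.39 in Myocd-LSD1NF cells (3.06, FDR 5.86e-13), and lower at 2 others, per the authors' deposited table. Fgfr3 had 4 lower sites, from -0.61 to -2.02, and a single higher one at 3.21 per the authors' deposited table. Nrg1, a ligand of ERBB receptors, had 3.98 in Myocd-LSD1 cells, against 0.58 in Myocd-LSD1NF cells on a TSS (3.40, FDR 0.00290) and a lower intron site (-2.59) per the authors' deposited table. Itga11, a collagen receptor, was higher by 1.26 and 1.47 at the TSS and just inside and lower (-2.04) before it, per the authors' deposited table.

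Directions were unevenly spread over chromosomes. Over all chromosomes, 2174 of the 5183 sites were lower. Lower sites made up 57.5% of the 268 sites of chromosome 6 (interval 51.3 to 63.5) and 56.9% of the 174 of chromosome 17 (49.2 to 64.4). They made up 26.1% of the 176 of chromosome 15 (19.8 to 33.3) and 29.4% of the 245 of chromosome 13 (23.8 to 35.5). The intervals take sites as independent, which neighbouring sites are not, and are therefore too narrow. The X chromosome had the fewest sites for its peaks, 6.58 per 100 peak regions of both lists, against 12.7 on chromosome 13. In windows of 5 Mb, 241 held at least 10 sites, of which 7 held higher sites only and 1 lower sites only. The window with lower sites only was on chromosome 17 (75000001 to 80000000), with 13 lower sites and 91 peaks in Myocd-LSD1 against 109 in Myocd-LSD1NF cells. On chromosome 13 (55000001 to 60000000) 14 higher sites stood beside 39 peaks in Myocd-LSD1 cells, against 17 in Myocd-LSD1NF cells, with 24 in control cells.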

How the data were processed

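H3K4me2 libraries of Myocd-LSD1 and Myocd-LSD1NF cells (3 each) were compared by the authors. Bowtie2, deepTools, MACS2, ChIPseeker, DiffBind and build rn6 are named per the submitters' processing notes; no source used here states their versions or settings. The authors' deposited table holds mean log2 concentrations of both lines with the log2 difference of each site, and its p-value and FDR, per the file headers. The authors' deposited peak lists, 1 per group, give per the file headers a score, a fold enrichment, -log10 p-values and -log10 q-values per peak; only the q-value ranks were used, in an alternative. Depth per library is unknown, and no test was added.

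The difference was taken as Myocd-LSD1 minus Myocd-LSD1NF level, which lay within 0.01 of the deposited log2 difference. Site starts, counted from 0, were turned to counting from 1. A site took the gene and TSS distance of each peak of either line that it overlapped by at least 1 bp; 3 sites took none, 8 took 2 genes, and 7 sites carry 1 of 5 gene names that were turned into dates. The number tested was estimated from the FDR, the p-value and its rank. Overlaps were tested on simulated regions.

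The sites, gene lists and comparisons were chosen with earlier results of these data known. Named genes follow a rule: per direction the 10 largest differences, the 10 highest levels, the 10 largest differences within 1 kb of a TSS (level of at least 1 in both lines, except for the levels), the 10 genes with most sites, the 5 longest runs, the leading members of each list, the 5 sites nearest the threshold, and Myocd, Kdm1a and SMC marker genes. Further genes, among them Cdkn1c, Mrvi1, Pde4a, the members of each list given by direction and the sites of genes with both directions, were chosen after their values were seen; some genes the rule takes are not reported here. Alternatives changed the FDR, the promoter distance, the overlap, the annotating list, the peaks used and the gap in runs. Promoter windows were matched by symbol to RefSeq (GRCr8). Tools were Python 3.11.15, scipy 1.17.1, pandas 2.3.3, numpy 2.4.6 and, for plots, matplotlib 3.10.9.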

Additional observations from a re-analysis of the deposited data

How the results depend on the processing

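The table gives no value per library and no error, so leaving out a library was not possible, and the p-values measure only the spread between libraries, which may be technical. No paired analysis was possible because levels are given per line and not per library. Depth per library is unknown, and no listed site had a level below 3.03 in the line with more signal, so differences at weaker sites were not detectable here. Site counts kept to within 1.5 times under the alternatives tried, except 1296 lower sites at an FDR of at most 0.01. With 1 kb in place of 3 kb, 33.8% of higher and 15.8% of lower sites were at promoters. Without sites at a column floor the promoter share of higher sites was 46.0%, with the Myocd-LSD1NF list alone 53.3%, and with the Myocd-LSD1 list alone that of lower sites was 27.1%. Genes with a higher site numbered 1277 with the Myocd-LSD1NF list alone and 1226 within 3 kb of a TSS. Genes with a lower site numbered 1005 with the Myocd-LSD1 list alone, 1120 at an FDR of at most 0.01 and 476 within 3 kb.

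Peak shares depended on the overlap and on the peaks used. With 50% of the site covered, a Myocd-LSD1 peak lay at 99.6% of higher and 40.8% of lower sites, a Myocd-LSD1NF peak at 36.6% of higher, a control peak at 59.6% of higher and 73.0% of lower, and a FLAG peak at 13.4% of higher and 7.59% of lower sites. With the 50% of each list that had the strongest q-values, these were 71.4% and 18.0% (Myocd-LSD1), 20.9% of higher and 67.5% of lower (Myocd-LSD1NF), 41.9% and 43.9% (control), and 16.9% and 9.75% (FLAG). Runs of 4 or more numbered 15 higher and 12 lower with gaps of up to 20 kb, and 66 and 53 with gaps of up to 100 kb. The order of higher and lower members turned in 4 of 26 lists within 3 kb of a TSS (focal adhesion, cadherin, collagen and immediate early genes) and in 2 at an FDR of at most 0.01 (HOX, 5 higher and 6 lower; neural, 2 and 3). It ended in a tie in 5 and 4 lists, among them SMC regulators under both (3 each, 7 each), HOX genes within 3 kb (5 each) and cadherins at an FDR of at most 0.01 (4 each). Osteogenic genes then had 10 higher and 0 lower members. Restricting the medians by distance and FLAG peak to sites of at least 6 in a line, or leaving out floor sites, was chosen after seeing the data.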
